A study of Homo sapiens with 4 samples.

Results

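The sites described here are all BACH1 peaks that 2 deposited lists, one per airway cell line, place on chromosome 14 of the hg19 build. They were chosen by chromosome, and the chromosome was chosen with its share of each list known. They number 265 rows of 10246 in the Calu3 list and 219 of 3415 in the 16HBE14o- list, together 484 of 13661 rows. Chromatin immunoprecipitation sequencing with a rabbit anti-BACH1 antibody was run in the lung adenocarcinoma line Calu3 and in 16HBE14o-, a line of human bronchial epithelial cells. Both lines grew in DMEM with fetal bovine serum, and the labels name no treatment, knockdown or genotype for either. Each line had 2 replicates, which the authors reduced to 1 list of reproducible peaks, so the comparisons below carry no spread between replicates and no test. Overlapping rows were merged, which left 215 regions in 16HBE14o- and 265 in Calu3. Sites that overlapped between the lists by 1 bp or more are called shared.

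BACH1 is a basic leucine zipper repressor that pairs with small MAF proteins at MAF recognition elements, where it competes with the activator NRF2. Haem binding releases it from DNA, and its best known targets serve haem breakdown, iron storage and the antioxidant response. Chromosome 14 is acrocentric: its short arm consists mainly of satellite and ribosomal DNA repeats, and its long arm carries FOS, which encodes an AP-1 subunit that binds related elements, HIF1A, which encodes a subunit of the hypoxia factor, and GPX2, which encodes an epithelial glutathione peroxidase. None of the sites below was assigned to these or other genes, and their sequences were not read, because no hg19 genome or annotation was used here.

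BACH1 sites lay from 20687390 to 105557931 in Calu3 and from 22240073 to 105956137 in 16HBE14o-, as positions of the first and last summits. Calu3 thus had 1.23 times as many regions on the chromosome as 16HBE14o-, whereas its whole list was 3.02 times as long. As a share of its list, the chromosome held 2.59% of the Calu3 regions (95% exact interval 2.29 to 2.91) and 6.34% of the 16HBE14o- regions (95% exact interval 5.54 to 7.21). The chromosome was chosen with these shares known, so they are given as a description. The lists differ in peak width and in their columns, and what part of the gap comes from their making cannot be told apart from the cell line. The regions were 153 to 609 bp wide in Calu3 (median 241), while 207 of the 215 in 16HBE14o- were exactly 240 bp wide.

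Strength was read as the rank of the deposited signal within each list, which for Calu3 is a fold enrichment and for 16HBE14o- a signal on an unstated scale. On chromosome 14 the Calu3 fold enrichment ran from 2.11 to 28.8 with a median of 4.65, and the median region stood at percentile 58.6 of the whole list. In 16HBE14o- the signal ran from 14.6 to 235 with a median of 29.6, at percentile 48.0 of its list. The Calu3 sites of this chromosome thus lay above the middle of their list and the 16HBE14o- sites slightly below it. Of the 265 Calu3 regions, 37 (13.96%, 95% exact interval 10.0 to 18.7) had a q, as deposited, of 0.05 or more, against 26.7% of the list over all chromosomes. The chromosome held a like part of the strongest Calu3 sites: 12 of the 500 strongest regions of the list (2.40%) lay on chromosome 14. In 16HBE14o- 32 of the 500 strongest (6.40%) did, close to the chromosome's part of the full list.

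Both lines placed BACH1 at 70 sites of the chromosome. These were 26.4% of the Calu3 regions (95% exact interval 21.2 to 32.2), beside 15.3% over all chromosomes, and 32.6% of the 16HBE14o- regions (95% exact interval 26.3 to 39.3), beside 46.5% over all chromosomes. Each shared region had its own counterpart, so the same 70 pairs stand behind both percentages. The ratio of these percentages is therefore set by the region counts, which were known when the chromosome was chosen. Among 23 chromosomes, 14 had the second highest shared share in Calu3 and stood at place 21 in 16HBE14o-. These places are not separate results, since both rest on the same pairs. Chromosome 20, whose part of the 16HBE14o- list is also the larger one, had the like pair of values, 25.3% in Calu3 and 30.2% in 16HBE14o-. The shares depend on list length. With Calu3 limited to as many regions as the 16HBE14o- list, 44 of 103 Calu3 regions (42.7%) and 44 of 215 regions of 16HBE14o- (20.5%) were shared, beside 30.9% and 31.1% over all chromosomes.

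**Figure D1:**
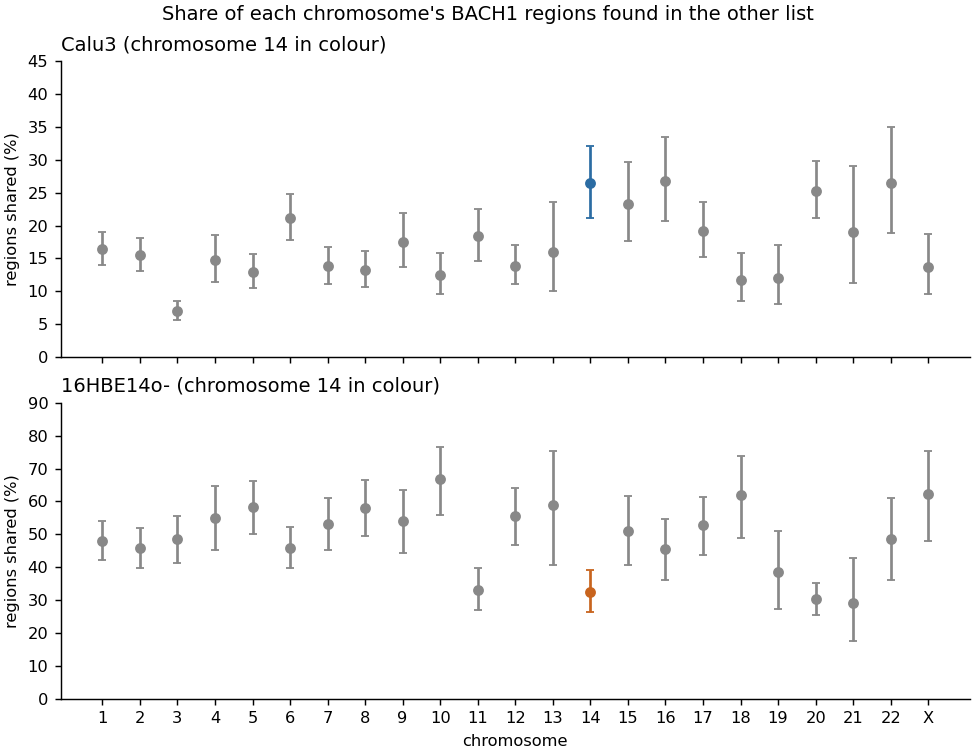
Share of each chromosome's BACH1 regions that met a region of the other list (y axis, percent) by chromosome (x axis), with Calu3 above and 16HBE14o- below; bars are 95% exact binomial intervals, which cover counting error only, and the y axes differ. Chromosome 14, in colour, stands at 26.4% in Calu3, among the higher values, and at 32.6% in 16HBE14o-, among the lower ones. Both values count the same pairs of sites.

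Each list was cut into 4 classes of 25% by signal. The shared share went up with every class in 16HBE14o-, and in Calu3 it stood apart in the strongest. Of the 53 regions of 16HBE14o- on this chromosome that belong to the strongest 25% of their list, 42 (79.2%) were also bound in Calu3, against 84.8% of that class on the other chromosomes. In the next class the shares were 13 of 51 (25.5%, 95% exact interval 14.3 to 39.6) and 53.3%. The weakest class held 5 shared regions of 62 (8.06%), against 19.5% elsewhere. In this line the gap to the other chromosomes was thus widest in the class below the top, and no test of it was made. In Calu3, 38 of 78 regions in the strongest class (48.7%, 95% exact interval 37.2 to 60.3) were shared, against 36.1% elsewhere. In the 3 other classes the Calu3 share ran only from 15.9% to 18.2% on chromosome 14, while elsewhere it went from 4.54% in the weakest to 12.1% in the third. The region counts known when the chromosome was chosen can move the shares within the classes of both lines too. The gaps to the other chromosomes are therefore a description and not a separate result.

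**Figure D2:**
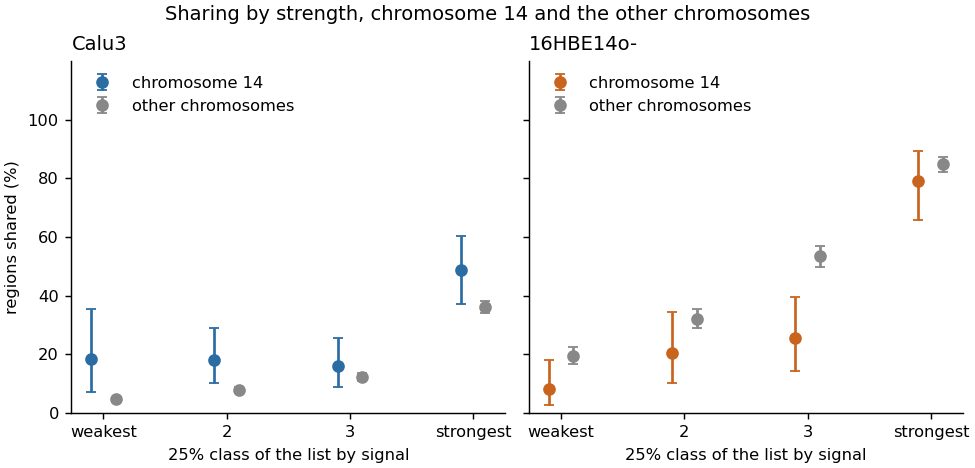
Share of regions found in the other list (y axis, percent) by class of 25% of the whole list in order of signal (x axis), for chromosome 14 (colour) and the other chromosomes (grey), with 95% exact binomial intervals. In 16HBE14o- the strongest class of chromosome 14 reaches 79.2%, beside 84.8% elsewhere, and the third class 25.5%, beside 53.3%; in Calu3 the strongest class reaches 48.7%, beside 36.1%.

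The shared sites were the stronger ones on the chromosome, as they were over the whole lists. Their median percentile was 81.0 in 16HBE14o-, against 33.5 for the 145 unshared regions, and 76.9 in Calu3, against 53.3 for the 195 unshared regions. Over all chromosomes the medians were 72.0 (shared) and 33.8 (unshared) in 16HBE14o-, and 82.3 and 45.1 in Calu3, so that in Calu3 the contrast was the smaller one on chromosome 14. Paired summits lay a median of 14 bp apart (interquartile range 8 to 31), beside 18 bp over all chromosomes. In 62 of the 70 pairs (88.6%) they were within 50 bp, beside 87.6% over all chromosomes, and 1 pair was more than 100 bp apart, at 166 bp. The spacing was thus close to that of shared sites in general, and overlap of such narrow regions itself limits how far apart paired summits can lie.

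The 10 shared sites with the lowest sum of ranks had summits 0 to 18 bp apart and fell into 6 of the 5 Mb steps. The first lay from 62129352 to 62129477 in 16HBE14o-, where it ranked 21 with a signal of 194. Its Calu3 region, from 62129121 to 62129630, ranked 74 with a fold enrichment of 26.0. It was the second strongest site of the chromosome in both lists. The next, from 58637874 to 58638113, had its summit at the same base in both lines. It was the strongest Calu3 site of the chromosome (fold enrichment 28.8, rank 50) and ranked 101 in 16HBE14o- with a signal of 112. The third lay from 50814241 to 50814480 and ranked 225 in 16HBE14o- and 131 in Calu3, with summits 2 bp apart.

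The strongest 16HBE14o- site was next by rank sum. It lay from 103603454 to 103603582, with a signal of 235 and rank 8 of the whole list, and was the only site of the chromosome among the 10 strongest of either list. Its Calu3 counterpart, from 103603316 to 103603709, had a fold enrichment of 14.9 and ranked 425. The other sites in this order were from 63935059 to 63935298 (ranks 171 in 16HBE14o- and 310 in Calu3), from 62029691 to 62029750 (41 and 508) and from 105144138 to 105144377 (286 and 330). The sites from 71165106 to 71165345 (87 and 557) and from 104094552 to 104094791 (127 and 517) tied for the next place. The site from 58549297 to 58549536 (592 and 253) came last of the 10. Ranks from lists of unequal length do not compare binding between the lines.

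All 10 of the strongest 16HBE14o- sites of the chromosome were shared, with signals from 91.2 to 235. Besides those above they were from 24116631 to 24116691 (rank 39, signal 159), from 89466989 to 89467228 (rank 150) and from 52746219 to 52746458 (rank 167). Their Calu3 counterparts ranked 1475, 1164 and 2034, at percentiles 85.6, 88.6 and 80.2 of the longer Calu3 list. In Calu3, 7 of the 10 strongest sites were shared, with fold enrichments from 16.4 to 28.8 over the 10. The 1 not yet named among the 7 lay from 24502312 to 24502592, with rank 251 and a fold enrichment of 18.4, and ranked 1196 in 16HBE14o-. Of the 10 strongest sites of each list, 3 were the same, at 58.6, 62.1 and 63.9 Mb. No such counts were made for equally ranked sites of other chromosomes, so they describe chromosome 14 only. Sharing was already common among strong 16HBE14o- sites elsewhere, at 84.8% of the strongest class of 25%. For Calu3 that class stood at 36.1%.

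Over all 70 pairs the ranks in the lists followed each other loosely, with a Spearman's rho of 0.43 across sites, beside 0.53 over the shared sites of all chromosomes; sites share their libraries and are not replicates. Both percentiles were over 75 at 27 sites, while 11 passed 75 in Calu3 alone, 15 in 16HBE14o- alone and 17 in neither. At 7 sites the 16HBE14o- percentile was over 75 and the Calu3 percentile under 50. The widest such contrast lay from 34466953 to 34467192, with rank 447 and a signal of 59.1 in 16HBE14o- and rank 7341 and a fold enrichment of 3.28 in Calu3. The next were the site from 75038796 to 75039035, which ranked 306 and 6386, and that from 50527823 to 50528062, which ranked 231 and 5798. Some sites just below the cut of 75 had a wider contrast. That from 22239953 to 22240192, for example, stood at percentile 73.2 in 16HBE14o- and 1.72 in Calu3. At 5 sites the order was the other way round. The widest contrast of that kind lay from 61448780 to 61449019, at percentile 6.34 in 16HBE14o- and 77.4 in Calu3. That site ranked 3179 in 16HBE14o- with a signal of 20.8 and 2319 in the longer Calu3 list with a fold enrichment of 6.59. These sites were chosen after their values were seen. The counts above have no like counts over all chromosomes beside them, so they describe these 70 pairs only.

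**Figure D3:**
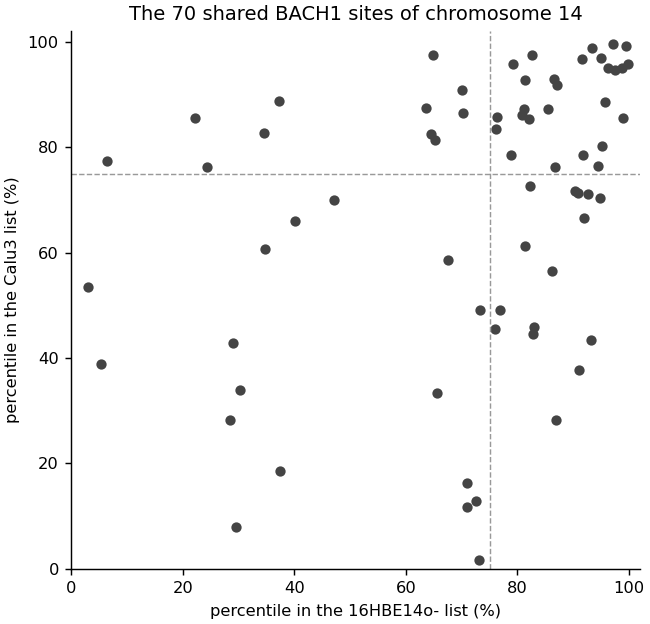
Percentile of signal within the 16HBE14o- list (x axis) and within the Calu3 list (y axis) for each of the 70 shared sites of chromosome 14; the dashed lines mark percentile 75. Of the sites, 27 lie beyond both lines, at the upper right, and 17 beyond neither.

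Along the chromosome, counted by summit in steps of 5 Mb from 20 to 110 Mb, the lists were filled differently. Calu3 regions were most numerous from 50 to 55 Mb, where 29 lay (10.9% of its regions on the chromosome, 95% exact interval 7.45 to 15.3), and 16HBE14o- regions from 100 to 105 Mb, where 32 lay (14.9%, 95% exact interval 10.4 to 20.4). In the fullest step of each line the other line had 17 and 16 regions, respectively. Out of 590 steps of the genome with a region in either list, the step from 100 to 105 Mb came at place 10 by number in 16HBE14o- and at place 260 in Calu3. The step from 50 to 55 Mb came at place 67 in Calu3 and 27 in 16HBE14o-. Leaving out the step from 100 to 105 Mb, which was chosen after its count was seen, the chromosome held 5.44% of the 16HBE14o- list and 2.43% of the Calu3 list.

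The 3 strongest Calu3 regions from 50 to 55 Mb were the site at 50814215 to 50814546 named above, a region from 54913993 to 54914316 (fold enrichment 17.7, rank 271) and one from 50914192 to 50914477 (fold enrichment 9.15, rank 1279). Only the first was shared. From 100 to 105 Mb the 3 strongest of 16HBE14o- were the sites at 103603454 and 104094552 and a region from 102563825 to 102564064 (signal 53.1, rank 545), which had no counterpart. Of the 32 regions of 16HBE14o- there, 26 were unshared, with a median percentile of 29.1, and 6 were shared, with a median percentile of 79.1. The fullest stretch of 16HBE14o- thus held mostly weaker regions that Calu3 did not list, around a few strong ones that it did.

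The lists crossed over from the centromeric to the telomeric end. Below 40 Mb Calu3 had 62 regions, 23.4% of its sites on the chromosome (95% exact interval 18.4 to 29.0), and 16HBE14o- had 25, 11.6% (95% exact interval 7.67 to 16.7). From 100 Mb onwards the numbers were 22 in Calu3 (8.30%, 95% exact interval 5.28 to 12.3) and 44 in 16HBE14o- (20.5%, 95% exact interval 15.3 to 26.5). In the middle part, from 45 to 100 Mb, the shares were alike, with 181 regions (68.3%) and 146 regions (67.9%). Step by step, 16HBE14o- had more regions than Calu3 in 5 of the 17 steps that held any (60 to 65, 70 to 75, 90 to 95, 100 to 105 and 105 to 110 Mb), as many in 1 and fewer in 11. Relative to the length of its list, 16HBE14o- was the higher one in 15 of the 17 steps, and Calu3 from 25 to 30 and from 30 to 35 Mb. These dividing positions were set after the steps were counted.

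Sharing went the opposite way in the end parts. Below 40 Mb 13 of 25 regions of 16HBE14o- (52.0%, 95% exact interval 31.3 to 72.2) and 13 of 62 Calu3 regions (21.0%, 95% exact interval 11.7 to 33.2) were shared. Within that part, the shared regions of 16HBE14o- were 5 of 13 from 20 to 25 Mb, all 6 from 25 to 35 Mb and 2 of 6 from 35 to 40 Mb. From 100 Mb onwards 10 of 44 regions of 16HBE14o- (22.7%, 95% exact interval 11.5 to 37.8) and 10 of 22 Calu3 regions (45.5%, 95% exact interval 24.4 to 67.8) were shared. In each part the line with fewer sites had the higher shared share, since the same pairs are counted in both. The step from 40 to 45 Mb held no region in either list, which allows up to 0.036% of the Calu3 list and 0.109% of the 16HBE14o- list by the exact interval. Across it, no site of either line lay between 39739235 and 45431254, a gap of 5.69 Mb.

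**Figure D4:**
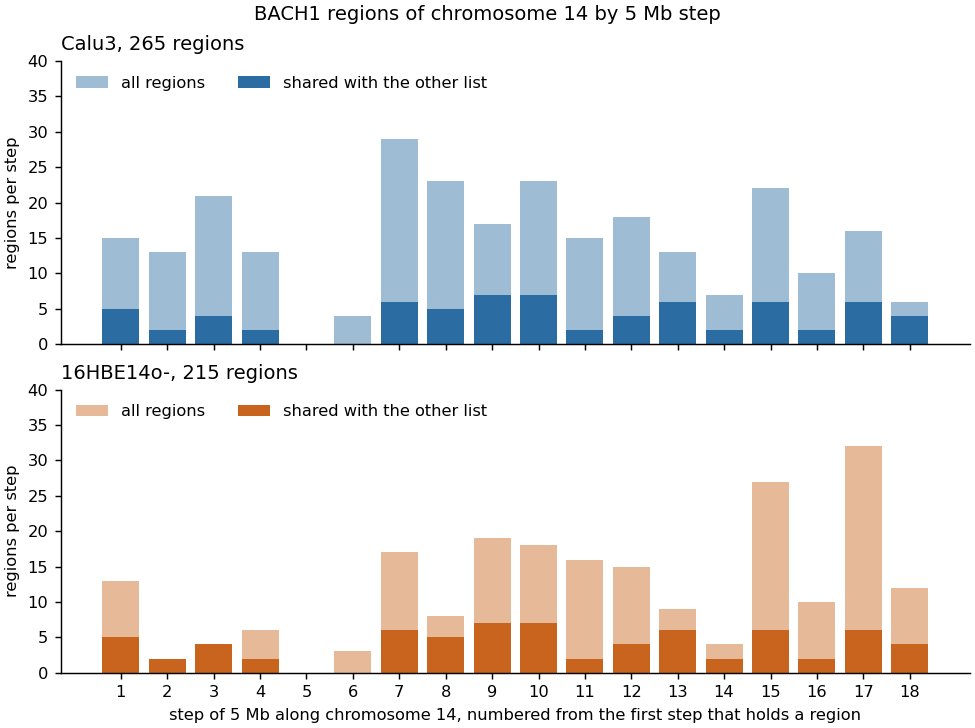
Number of BACH1 regions (y axis) in each 5 Mb step of chromosome 14 (x axis, step 1 being 20 to 25 Mb and step 18 being 105 to 110 Mb), with Calu3 above and 16HBE14o- below; the dark part of a bar is shared with the other list. Calu3 peaks in step 7 with 29 regions and 16HBE14o- in step 17 with 32, and step 5 is empty in both.

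**Figure D5:**
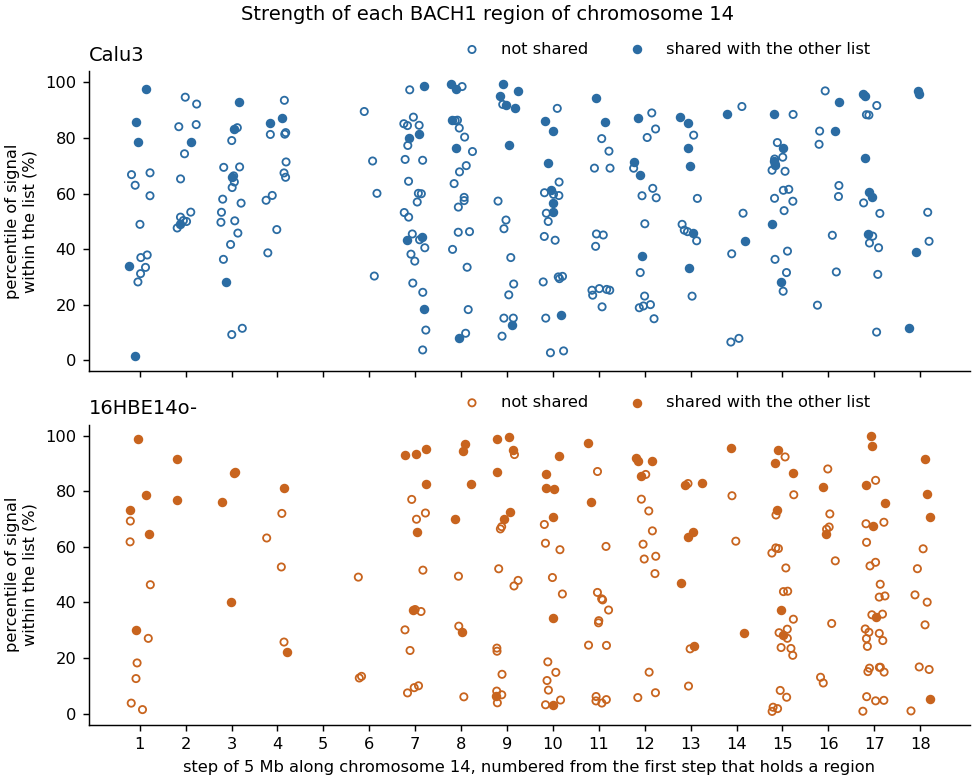
Each point is a BACH1 region of chromosome 14, at the percentile of its signal within its list (y axis) and by 5 Mb step (x axis, numbered as 1 for 20 to 25 Mb; sideways spread within a step is random), with Calu3 above and 16HBE14o- below; filled points are shared. In 16HBE14o- filled points gather above percentile 60, and the many open points of steps 15 and 17 lie mostly below it.

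Sites also lay closer together in 16HBE14o- than in Calu3, although fewer in number. Neighbouring summits were a median of 96.7 kb apart in 16HBE14o- and 151 kb in Calu3. There were 23 windows of 100 kb with at least 3 regions in 16HBE14o- and 9 in Calu3, and 3 were in both sets. They held 80 regions of 16HBE14o- (37.2%), beside 17.5% of that list over all chromosomes, and 34 Calu3 regions (12.8%), beside 23.5%. On this chromosome the part in such windows was thus the greater one in 16HBE14o-, the reverse of the order over the whole lists. Windows of fixed size fill as regions become more numerous. The chromosome was chosen with its larger part of the 16HBE14o- list known, and grouping beyond that density was not tested.

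The window from 62000001 to 62100000 was the fullest in Calu3, with 6 regions, and held 4 of 16HBE14o-. The sites from 62004235 to 62004474 and from 62029691 to 62029750 were bound in both lines, with ranks of 439 and 41 in 16HBE14o- and 847 and 508 in Calu3. A further Calu3 region, from 62069463 to 62069801, had a fold enrichment of 11.3 and rank 809 but was unshared, with the nearest 16HBE14o- summit 32912 bp away. Near the strong site at 62029691, each list also had a weak region that the other missed narrowly: that of Calu3 from 62031411 to 62031563 (rank 9356) and that of 16HBE14o- from 62031590 to 62031829 (rank 3262) had summits 232 bp apart without overlapping. Farther along lay the shared site at 62129352 and a 16HBE14o- region from 62431807 to 62432046, which ranked 230 and had no counterpart.

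A window near the telomere, from 105100001 to 105200000, had 5 regions of 16HBE14o- and 3 of Calu3. It held a pair of shared sites whose summits were spaced by 2723 bp in 16HBE14o- and by 2742 bp in Calu3, with ranks of 286 and 708 in 16HBE14o- and 330 and 442 in Calu3. To the right of the pair 16HBE14o- had 2 weaker regions, from 105148610 to 105148849 (rank 1944) and from 105149570 to 105149809 (rank 1381), that Calu3 did not list. The chromosome had 2 such pairs of shared neighbours within 10 kb. The other lay from 25585872 to 25586111 and from 25591029 to 25591268, with summits 5157 bp apart in both lines. That pair was the whole of what 16HBE14o- had from 25 to 30 Mb, with ranks of 786 and 281, and ranked 5214 and 2210 in Calu3. The third window in both sets, from 81600001 to 81700000, held 5 Calu3 regions and 3 of 16HBE14o-, none of them ranked above 2429 in Calu3 or 1798 in 16HBE14o-.

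Some groups were seen in only 1 list. The counts of windows, here and above, have no like counts over all chromosomes beside them, so they describe this chromosome only. In 5 of the 20 windows dense in 16HBE14o- alone there was no Calu3 region: their starts were 23400001, 93600001, 96500001, 100000001 and 103500001. In the window at 100000001 the 4 regions of 16HBE14o- ranked from 2187 to 2573, and the nearest Calu3 summit was 257890 bp or more away from each. By contrast, the window at 96500001 held the region from 96553130 to 96553369, with a signal of 61.8 and rank 406. In 4 of the 6 windows dense in Calu3 alone there was no region of 16HBE14o-: their starts were 54300001, 56200001, 59800001 and 102400001. The one at 102400001 held 4 Calu3 regions, of which that from 102428823 to 102429247 ranked 849 with a fold enrichment of 11.1, and its neighbours ranked from 4440 to 7073. Because the depth behind the lists is unknown, a missing region was not detected in that line and cannot be called absent.

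The 5 strongest sites without a counterpart stood at places 4 to 17 among the Calu3 sites of the chromosome and at places 14 to 31 among those of 16HBE14o-. In Calu3 they lay from 56806463 to 56807057 (fold enrichment 21.5, rank 151), from 54913993 to 54914316 (rank 271, above), from 99418949 to 99419294 (fold enrichment 16.9, rank 311), from 26750813 to 26751204 (fold enrichment 13.5, rank 543) and from 37445723 to 37446160 (fold enrichment 12.4, rank 658). For 3 of them the nearest 16HBE14o- summit was far away, at 891949, 621668 and 1159835 bp for the sites at 56.8, 99.4 and 26.8 Mb. For the sites at 54.9 and 37.4 Mb it was 5925 and 20053 bp away. In 16HBE14o- the strongest were from 62431807 to 62432046 (rank 230 with a signal of 81.8) and from 93252571 to 93252810 (rank 259). The next were from 96553130 to 96553369 (rank 406, above), from 74262689 to 74262928 (rank 437) and from 75909374 to 75909613 (rank 473, with a signal of 57.3).

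The second of these stood beside a shared site. The region from 93252571 to 93252810 had its summit 529 bp from that of a Calu3 region, which was itself shared with the neighbouring 16HBE14o- region from 93252028 to 93252267 (rank 330). 16HBE14o- thus listed a pair of near-equal regions, with signals of 69.5 and 76.8, where Calu3 listed 1, with a fold enrichment of 5.82 and rank 2885. Of the 145 unshared regions of 16HBE14o-, 27 (18.6%) had a Calu3 summit within 10 kb, beside 16.6% of the unshared regions of that list over all chromosomes. Of the 195 unshared Calu3 regions, 19 (9.74%) had a 16HBE14o- summit within 10 kb, beside 5.66%. In the strongest 25% of their lists stood 40 unshared Calu3 regions, of 78, and 11 unshared regions of 16HBE14o-, of 53. The shared part of that class was 48.7% in Calu3, beside 36.1% on the other chromosomes. In 16HBE14o- it was 79.2%, beside 84.8%.

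Each of the 4 merged regions of 16HBE14o- joined 2 rows with summits about 0.2 kb apart. All 4 were unshared, as were 145 of the 215 regions of that line on the chromosome. The merged regions lay from 71067268 to 71067707, from 77499794 to 77500233, from 93260382 to 93260822 and from 104544274 to 104544713. The stronger row of each had a signal of 19.8, 20.5, 32.4 and 25.6, and the weaker 15.3, 9.31, 8.64 and 11.8.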

How the data were processed

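BACH1 ChIP-seq peaks of 4 samples, 2 per cell line, were taken from the deposited list of each line. The lists are pooled over both replicates by the irreproducible discovery rate, per the labels, and the build is hg19 per the submitters' processing notes. Not given in the sources used here are aligner, caller, filters, controls and read depth. The Calu3 file holds, as the authors deposited it, a fold enrichment (ratio), a −log10 q per peak and a browser score. The 16HBE14o- file holds, as deposited, a signal on an unstated scale, a browser score and a further score that goes below 0 and was not read as −log10 q. The fold enrichment and signal are the authors' own and only rank peaks within a list. Rows overlapping by 1 bp were merged, keeping the strongest row's signal and summit. Steps of 5 Mb use the summit. Positions are 1-based. Intervals are 95% Clopper-Pearson and cover counting error only. The unit is the region, which is not a replicate. Named are the 10 strongest regions per list, the 10 lowest rank sums, the 5 strongest unshared regions per list and the 3 strongest regions of each list's fullest step; others are said to be chosen later, as are the dense windows and merged rows. The chromosome and the choices were made with earlier results of these data known. Merging and overlap were checked on simulated lists. Planned gene assignment and motif searches were not run without an hg19 genome. Python 3.11.15, numpy 2.4.6, scipy 1.17.1, pandas 2.3.3 and matplotlib 3.10.9 were used.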

Additional observations from a re-analysis of the deposited data

How the results depend on the processing

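With Calu3 limited to the length of the 16HBE14o- list, 42.7% of its regions on chromosome 14 and 20.5% of those of 16HBE14o- were shared. When each list was cut to its upper 50%, 40.4% of the 16HBE14o- regions were shared, against 57.7% over all chromosomes, and the chromosome held 3.12% of the Calu3 list; without Calu3 regions of q 0.05 or more it held 3.03%. Without the step from 100 to 105 Mb, chosen after seeing the data, it held 5.44% of the 16HBE14o- list. The share of the list on the chromosome was higher in 16HBE14o- than in Calu3 under these alternatives. The chromosome was chosen with this difference known and the same rows were counted again, so this is no separate support for it. Steps of 2 Mb, being narrower, held at most 5.28% of the Calu3 and 8.84% of the 16HBE14o- regions of the chromosome. Under reciprocal overlap of 50%, 64 sites were shared, and with summits within 100 bp, 69. The other alternatives for shares (steps offset by 2.5 Mb, rows as deposited) stayed within the interval of the value given. Ranking by the browser score changed the difference in median percentile between shared and unshared regions. It was 38.7 points in 16HBE14o-, beside 47.5 by signal, and 24.2 in Calu3, beside 23.5. No paired analysis was possible because the replicates are pooled into 1 list per line; for the same reason a replicate could not be left out. Alternatives for motifs and genes were not run.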
